A study of Arabidopsis thaliana with 17 samples.

Results

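The regions described here are stretches of chromatin that carried H3K27me3 in endosperm and in leaf, and on which the endosperm ratio of H3K27me3 to H3 was high on the maternal genome and low on the paternal one. They were found in 3 steps. Steps of 150 bp covered by a domain in all 4 endosperm lists and in the leaf list were joined, and joined stretches of 1 kb or more were kept, which gave 2561 stretches on the 5 nuclear chromosomes. Of these, 1570 had at least 15 H3 reads from each parent and were eligible. Members had at least 3.7 H3K27me3 reads per H3 read on the maternal Col genome and at most 0.7 on the paternal Ler genome, and 126 of the 1570 eligible stretches (8.03%) met both limits. The members were thus chosen by the endosperm H3K27me3 to H3 ratios of both parents, which are given as a description, and nothing is read from that share.

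The profiles come from CUT&RUN, in which a nuclease tethered to an antibody cuts out the chromatin that the antibody binds. Endosperm nuclei with a DNA content of 6N were sorted by DAPI from F1 seeds of Col mothers and Ler fathers, 4 days after pollination. They were profiled after formaldehyde fixation or unfixed, with 2 H3K27me3 and 2 H3 libraries for each treatment. Leaf nuclei of several ploidies came from Col plants 3 weeks old and gave 1 library per antibody, so leaf has no paternal Ler genome to compare. Reads assigned to a parent were deposited as pooled endosperm columns without replicates, so no parental value could be tested over samples, and intervals cover counting error only.

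H3K27me3 is set by Polycomb repressive complex 2 and is associated with silent genes, many of them developmental regulators. The endosperm, the tissue that nourishes the embryo, carries more maternal than paternal genome copies and is the main site of imprinted gene expression in plants. In Arabidopsis, many genes expressed mainly from the paternal copy are known to carry H3K27me3 on the silent maternal copy.

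One library stands apart in how the stretches were cut. Domains of unfixed replicate 2 covered 12.7 Mb, against 19.8 to 21.3 Mb in the other 3 endosperm libraries and 20.5 Mb in leaf. Over 109 of the 126 members its widest domain was narrower than in each of the other 3 endosperm libraries, and over 68 members that domain was the stretch itself. Without this list, 2290 stretches were eligible and 134 met the rule (5.85%), and 73 of the 126 members overlapped one of those 134. Of the 53 members lost, 49 lay in a longer stretch with a Ler ratio above 0.7, and 10 in one with a Col ratio below 3.7, with some of both kinds. Members named below that are lost in this way are marked as such.

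Summed over the 126 members, the Col genome had 99186 H3K27me3 and 18008 H3 reads, a ratio of 5.51, and the Ler genome had 2978 and 5515, a ratio of 0.540. In bins outside every domain of every list the ratio was 1.21 on Col and 0.688 on Ler, and 116 members had a Ler ratio below 0.688, a count that the limit of 0.7 largely fixes. The paternal ratio was thus low but above 0 in all but 1 member, and "maternal only" stands for this contrast rather than for an absence of paternal reads. The exception was the stretch over AT5G46820 (chromosome 5, 18994651 to 18996600), with 0 Ler H3K27me3 reads beside 25 Ler H3 reads. With 3 counts in place of 0 the ratio would be 0.12, the upper limit of its 95% exact interval was 0.159, and its Col ratio was 5.12.

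The median Ler ratio of the members was 0.560 (quartiles 0.424 and 0.645). It was 1.38 in the 1029 stretches that met the same Col limit with a Ler ratio above 0.7, and 1.27 in all eligible stretches. The median Col ratio was 5.20 in members, 5.15 in those 1029 stretches and 4.59 in all eligible stretches. On the log2 scale the Col ratio over the Ler ratio had a median of 3.28 in members (range 2.45 to 8.02) and 1.92 in the 1029 stretches.

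**Figure D1:**
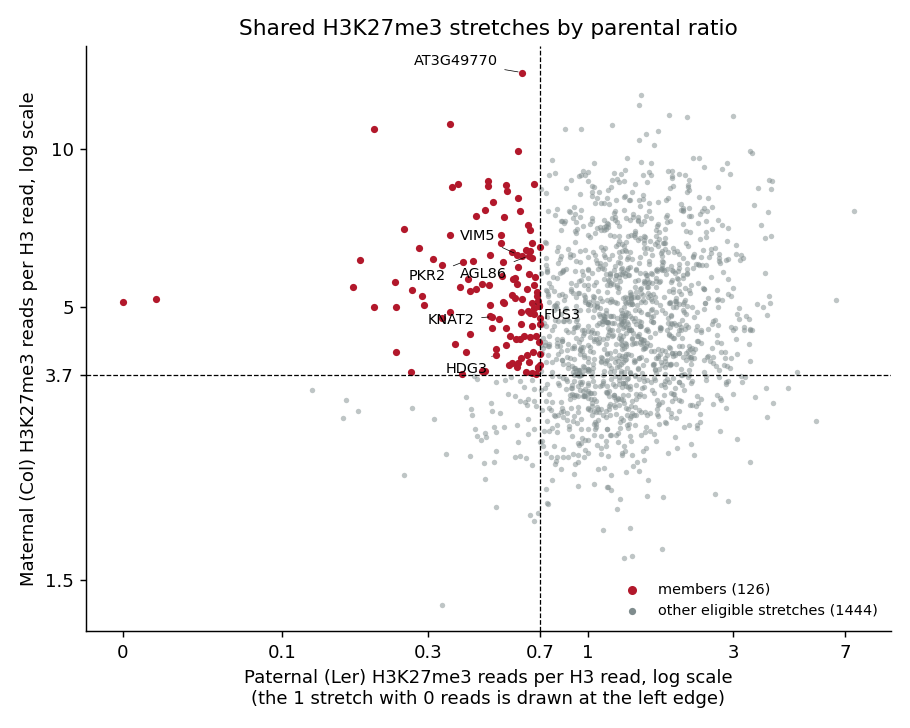
Each point is 1 of 1570 eligible stretches, placed by its paternal (Ler, x axis) and maternal (Col, y axis) H3K27me3 reads per H3 read, both on log scales. The 126 members (red) fill the upper left corner set by the dashed limits at 0.7 and 3.7, and the 7 members over genes of the lists are labelled; other stretches (grey) spread to Ler ratios of 7.47.

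The reads behind these ratios were few on the paternal side. Members held a median of 33.5 Ler H3 reads (15 to 224) and 17 Ler H3K27me3 reads. The upper limit of the 95% exact interval of the Ler ratio was below 1 in 70 members, a count not made over all eligible stretches. It was below the eligible median of 1.27 in 111 members, against 249 of all eligible stretches (15.9%). With intervals widened 1.69 times, to match how far the left and right parts of a stretch differed, 44 members had an upper limit below that median, against 4.84% of eligible stretches. The rule used these counts, so nothing is read from the difference between members and eligible stretches. The share of members was 8.63% among stretches with 15 to 29 Ler H3 reads, 7.10% with 30 to 59 and 8.78% with 60 or more.

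The members also differed from the other stretches in H3. Per kb, the median H3K27me3 count on Ler was 8.95 in members and 25.2 in the 1029 comparison stretches, while H3 on Ler was 18.2 and 17.9. On Col, H3K27me3 had a median of 260 reads per kb in members and 377 in the comparison stretches, and H3 had 47.0 and 72.8. These are the counts that the rule used, and they are given as a description. Ler reads made up a median of 26.1% of H3 reads in members and 20.0% in the comparison stretches, and 3.22% and 6.37% of H3K27me3 reads. When Ler H3K27me3 reads were instead divided by Col H3 reads scaled to the genome-wide Ler share, 46 of the 126 members still met the rule, among 82 stretches that did. The median Ler ratio of the members was then 0.782. Of the members over list genes, VIM5, PKR2, HDG3, KNAT2 and AGL86 met the rule, and FUS3 and AT3G49770, at 1.23 and 1.95, did not. Nor did the stretches over UGT72E1 (1.22) and CHI (2.09) or nearest to PHT1;4 (0.949) and PTL (0.903). Other named members were lost too, and this loss is not marked for each below. The part that the H3 counts have in the members' ratios was not tested further.

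**Figure D2:**
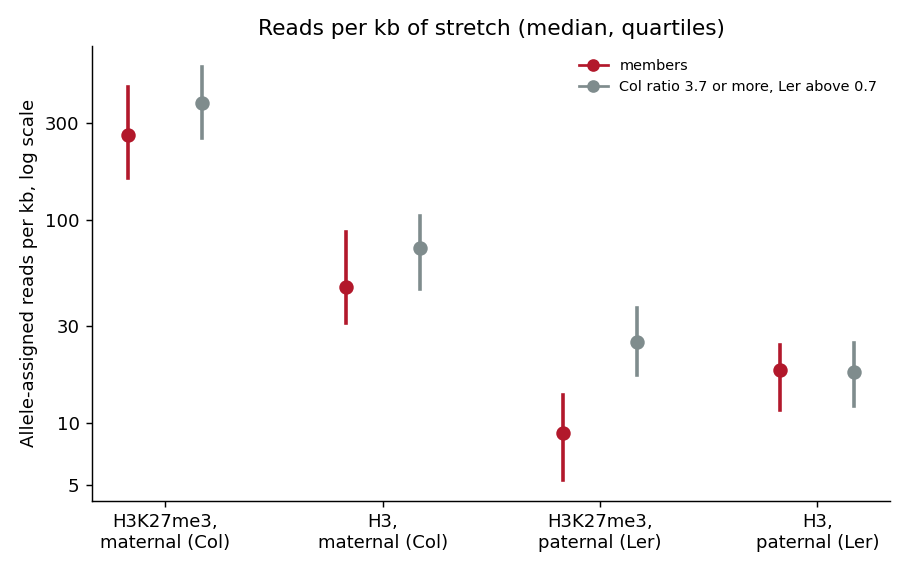
Points are medians and lines run between the quartiles of allele-assigned reads per kb (log scale), for the 126 members (red, left in each pair) and the 1029 stretches with a Col ratio of 3.7 or more and a Ler ratio above 0.7 (grey). Paternal H3K27me3 lies at 8.95 reads per kb in members and 25.2 in the others, with paternal H3 at 18.2 and 17.9.

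Close to the Ler limit, the last members were the stretches over AT2G26690 and GLR2.7, both at 0.7, and the next stretches outside were those over AT5G54350 at 0.702 and AT1G60400 at 0.703. Close to the Col limit, AT5G07330 and AT4G03610 were members at 3.72, and SQP1 at 3.696 and AT5G01380 at 3.68 were not. Of the 126 members, 47 had a Ler ratio above 0.6 and 49 had 0.5 or less. A stretch beside the limit is thus separated from its neighbour by less than its counting error.

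Genes known to be expressed from the paternal copy in endosperm were the list with the most members. Of 25 such genes, 19 lay at least in part in a shared stretch, 18 in an eligible one and 4 in a member. That is 22.2% of the 18 stretches beside the 8.03% of all eligible stretches, and it rests on 4 stretches. Another 13 of the 18 met the Col limit with a Ler ratio above 0.7, beside 1029 of the 1570 eligible stretches. The list thus met the Col limit more often, so its share does not describe the paternal ratio alone. The median Ler ratio of the 18 was 0.831 and their median Col ratio 6.48, so most of the list had a high maternal ratio with more paternal reads than the rule allows. Without unfixed replicate 2 the share was 15.8% (3 of 19 stretches), beside 5.85%. The 4 genes were VIM5, PKR2, HDG3 and AT3G49770.

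VIM5, of the VARIANT IN METHYLATION family that binds methylated DNA, lay whole in the member with the most paternal H3 reads (chromosome 1, 21408451 to 21415350). On Col it had 5895 H3K27me3 and 936 H3 reads, a ratio of 6.30 (95% exact interval 5.88 to 6.75). On Ler it had 132 and 224, a ratio of 0.589 (0.472 to 0.734). The interval lay below the eligible median of 1.27 and spanned the level outside domains. The 6900 bp stretch also held 33% of VIM1 and the pseudogene AT1G57810, and near-identical copies could share reads. The widest domain over it was 15750 and 11700 bp in the fixed endosperm libraries, 13950 and 9750 bp in the unfixed ones, and 8850 bp in leaf.

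PKR2 encodes a chromatin remodeller related to PICKLE, a protein linked to H3K27me3 in Arabidopsis. Its stretch was the longest of the members at 13350 bp (chromosome 4, 15431251 to 15444600) and also covered BAT1. It had 378 H3K27me3 and 62 H3 reads on Col, a ratio of 6.10, and 9 and 23 reads on Ler, a ratio of 0.391 (0.159 to 0.878). Its length held few allele-assigned reads, so the ratio is less precise than that of VIM5.

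HDG3 encodes a homeodomain transcription factor of the GLABRA2 class. Its stretch (chromosome 2, 13742401 to 13744500) covered 38.8% of the gene and had 300 H3K27me3 and 74 H3 reads on Col, a ratio of 4.05. On Ler the counts were 12 and 24, a ratio of 0.500 (0.228 to 1.04). AT3G49770, which has no named role in the annotation used, had the highest Col ratio of all members at 14.03 (435 and 31 reads), and 0.609 on Ler (14 and 23 reads). Ler reads made up 42.6% of the H3 reads in this stretch, against a median of 26.1% in members. Over scaled Col H3 reads its Ler ratio was 1.95, so it did not meet the rule in that setting. It is also among the members lost without unfixed replicate 2, where its longer stretch had a Ler ratio of 1.57.

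A further 4 paternally expressed genes were not in a member but had one as their neighbour. How many other genes neighbour a member was not counted, so nothing is read from this number. ADMETOS (ADM), known for its part in the seed abortion of crosses between ploidies, had its own stretch at 7.23 on Col and 0.838 on Ler (31 and 37 reads), and the member over AT4G11930, lost without unfixed replicate 2, lay next to it. AT1G60400 had 5.80 on Col and 0.703 on Ler, just past the limit, and the member beside it (chromosome 1, 22249951 to 22251150, nearest gene PG1) had 5.26 on Col and 0.286 on Ler (12 and 42 reads). AGL92 lay in no shared stretch and sits beside the member over AGL86, and AT4G20800 lay in none and sits beside a member over AT4G20810 with 6.16 on Col and 0.313 on Ler. In the other listed genes the paternal ratio reached higher values. PHERES1 (PHE1), a type I MADS-box gene and a well studied paternally expressed gene, had 2.12 on Ler (142 and 67 reads) with 8.30 on Col. SUVH7, which encodes a putative histone methyltransferase, had 0.750, the auxin synthesis genes YUC10 and TAR1 had 0.824 and 1.00, and DAF1 had a low Ler ratio of 0.667 with a Col ratio of 2.92, under the limit.

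The other lists had few eligible stretches, so their shares rest on 1 member or none. No maternally expressed imprinted gene of 11 lay in an eligible stretch. Of 19 listed type I MADS-box genes, from a family active in endosperm, 3 lay in an eligible stretch and 1 in a member (33.3% of 3 stretches). That gene was AGL86 (chromosome 1, 11316601 to 11319750), with 3036 and 485 reads on Col, a ratio of 6.26, and 50 and 78 on Ler, a ratio of 0.641 (0.440 to 0.926). AGL86 and its neighbour AGL92 are closely related, so reads could be shared between them. The list leaves out part of the family, such as AGL58, given below as a member, so its share does not describe the family.

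Of 28 regulators of flowering and of flower organs, 11 lay in an eligible stretch. Their 12 eligible stretches held no member, beside 8.03% of all eligible stretches, a share at which a set of this size would hold few or none. The median Ler ratio of the 12 stretches was 1.35, close to the 1.27 of all eligible stretches, and their median Col ratio was 5.36. FLC, a repressor of flowering, had 8.77 on Col and 1.24 on Ler. FRUITFULL (FUL) had 9.63 on Col and 2.22 on Ler, and APETALA1 (AP1) had 7.42 and 0.947. The lowest Ler ratio of the 11 was 0.909, at the ovule identity gene SEEDSTICK (STK), whose Col ratio was 2.50.

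Among 13 meristem and boundary regulators, 6 lay in an eligible stretch and 1, KNAT2, in a member (14.3% of 7 stretches). KNAT2, a class I KNOX homeobox gene, had 4.79 on Col (704 and 147 reads) and 0.488 on Ler (20 and 41 reads, 0.271 to 0.852). Its relative SHOOT MERISTEMLESS (STM), which keeps the shoot meristem, had 4.22 and 0.745. CUC2, a boundary gene, had 7.21 on Col and 2.06 on Ler. Without unfixed replicate 2, 2 of 10 eligible stretches of this list met the rule, at KNAT1 and KNAT2, beside 5.85% of all eligible stretches.

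Among 18 seed maturation genes, 5 lay in an eligible stretch and 1, FUS3, in a member (20% of 5 stretches). FUS3, a B3-domain master regulator of maturation, had 5.10 on Col (520 and 102 reads) and 0.659 on Ler (29 and 44 reads, 0.398 to 1.08). LEC2, a regulator of the same class, lay in no shared stretch. The member beside it (chromosome 1, 9903301 to 9904500) had 5.19 on Col and 0.0385 on Ler (1 and 26 reads), the lowest ratio above 0. Its widened interval reached 0.912. Without unfixed replicate 2 the longer stretch there still met the rule, at 0.310 on Ler (18 and 58 reads). ABI3, also of that class, had 1.70 on Ler, and the storage protein gene CRA1 had 2.77. Of 9 root regulators, 2 lay in an eligible stretch and none in a member. Without unfixed replicate 2, 1 of 4 eligible stretches with root regulators met the rule, at SMB.

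The 25 members with the largest parental contrast among the 72 with at least 30 Ler H3 reads had log2 contrasts of 3.41 to 5.02. The highest was a stretch without a protein-coding gene between AT4G20810 and AT4G20820 (chromosome 4, 11145151 to 11146800), with 6.16 on Col (474 and 77 reads) and 0.180 on Ler (9 and 50 reads, 0.0778 to 0.370). The next lay over the long noncoding RNA gene AT1G04443 beside AT1G06070 (chromosome 1, 1839451 to 1840650), with 5.47 on Col and 0.171 on Ler (7 and 41 reads). Both had a Ler interval below the ratio outside all domains. So did that over AT4G08535 (chromosome 4, 5423701 to 5425650), with 5.57 on Col and 0.234 on Ler (11 and 47 reads), which covered 28% of the gene. With the widened intervals the upper limits were 0.607, 0.672 and 0.719 in the same order, the last above the ratio of 0.688 outside all domains. Others of the 25 also had an exact upper limit below that ratio, such as the stretches nearest to PG1 (0.553) and over AT1G65760 (0.559).

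Other members of the 25 lay over genes known mostly by their locus names. The stretch over AT1G65760 and AMR1, a gene linked to ascorbic acid levels (chromosome 1, 24458251 to 24462000), had 2145 and 253 reads on Col, a ratio of 8.48, and 28 and 78 on Ler, a ratio of 0.359 (0.224 to 0.559). AT1G56400 had 7.95 on Col (3290 and 414 reads) and 0.491 on Ler (54 and 110 reads, 0.348 to 0.686). AT2G24696 had 6.29 on Col and 0.477 on Ler (53 and 111 reads), and AT4G16560 had 8.70 on Col and 0.472 on Ler (34 and 72 reads). In these 4 members a fair number of paternal reads stood behind the low ratio. Over scaled Col H3 reads, AT1G65760 (0.477) and AT1G56400 (0.563) still met the rule, and AT2G24696 (0.828) and AT4G16560 (0.784) did not.

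Members near genes of known function were also among the 25. The stretch nearest to PHT1;4, a phosphate transporter gene, had 6.86 on Col and 0.355 on Ler (11 and 31 reads). UGT72E1, a glucosyltransferase of the phenylpropanoid pathway, had 8.52 on Col and 0.472 on Ler (17 and 36 reads). The stretch nearest to PTL, a trihelix gene of petal development, had 6.49 and 0.281 (9 and 32 reads) and is lost without unfixed replicate 2, where the ratio of its longer stretch was 0.946. The stretches nearest to ESC and AT4G13490, and those over AT1G65500, AT1G78476, AT2G28970, AT3G11310 and AT5G03610, are lost in the same way, with Ler ratios of 0.746 to 1.22 in the longer stretch. The other 8 lay over CHI, AT2G23834, AT3G11150, AT3G17500, AGL58, HAT14 and VIM5 and beside PG1.

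**Figure D3:**
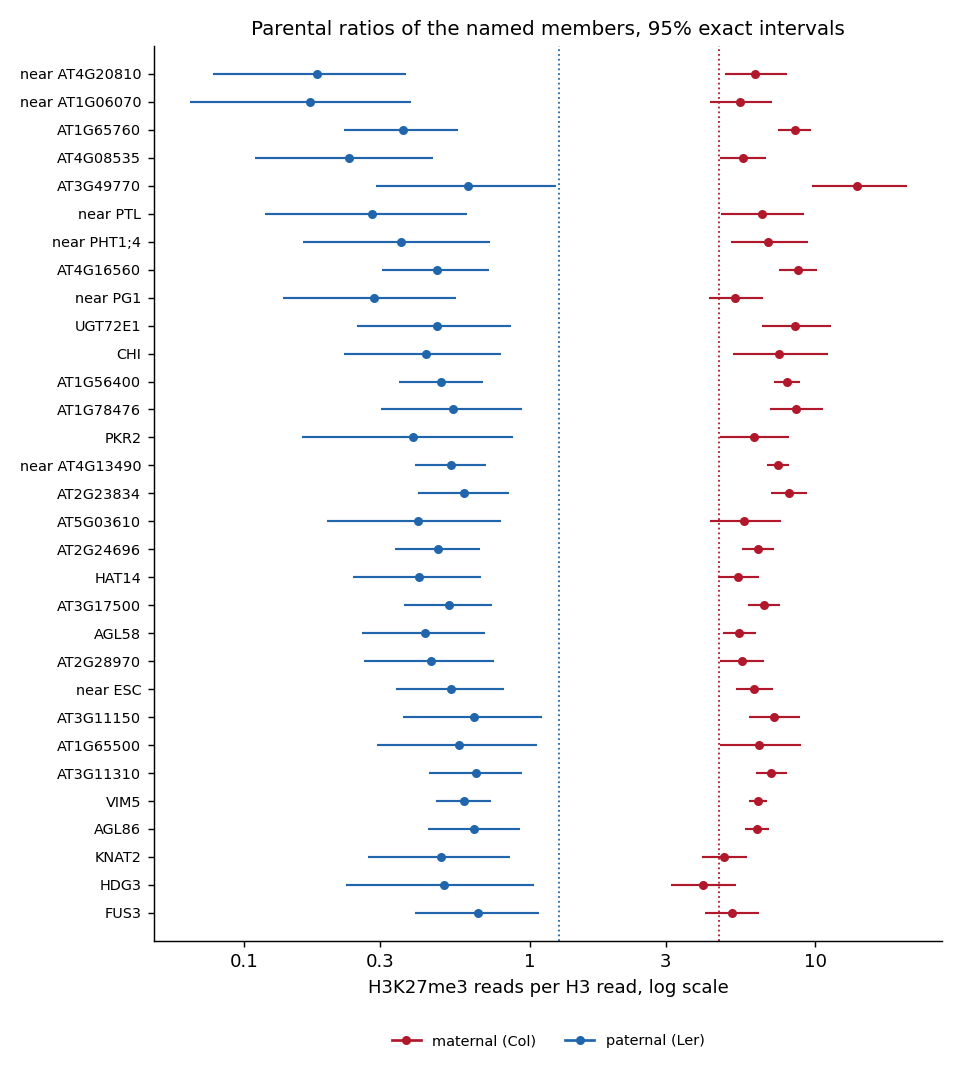
Points are maternal (Col, red) and paternal (Ler, blue) H3K27me3 reads per H3 read on a log scale for the 31 named members, ordered by parental contrast, with 95% exact intervals. Dotted lines mark the medians of all eligible stretches, 4.59 on Col and 1.27 on Ler; the paternal points of the top rows lie at 0.180 and 0.171.

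Transcription factor genes in members are given as examples, gathered by hand after the values were seen. How many other eligible stretches hold such genes was not counted, so their number says nothing particular to the members. AGL58, a type I MADS-box gene, had 5.42 on Col (1447 and 267 reads) and 0.431 on Ler (25 and 58 reads, 0.258 to 0.7). HAT14, of the HD-ZIP family, had 5.36 on Col (944 and 176 reads) and 0.411 on Ler (23 and 56 reads, 0.241 to 0.678). LBD16, a gene of lateral root initiation, and its relative ASL15 lay in neighbouring members on chromosome 2, with 0.381 (8 and 21 reads) and 0.474 (9 and 19 reads) on Ler. WRKY23 had 0.400, NGA4 0.421, NAC028 0.6 and AIL5 0.667, each on 18 to 25 Ler H3 reads, and all 4 of these are lost without unfixed replicate 2.

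Enzyme genes of hormone and specialised metabolism are examples gathered in the same way, with the same limit. GA1, whose product makes the first committed step of gibberellin synthesis, had a pair of member stretches. The one at 1236601 to 1239750 on chromosome 4 had 5.42 on Col and 0.632 on Ler (12 and 19 reads), and the one at 1241251 to 1243950 had 4.56 on Col and 0.485 on Ler (16 and 33 reads). BARS1, a triterpene synthase gene, had 5.54 on Col and 0.587 on Ler (37 and 63 reads), and CYP705A5 of the thalianol pathway had 4.77 and 0.7. The lowest of these examples were BGLU27 at 0.235 and NATA1 at 0.267, each with 4 Ler H3K27me3 reads. BARS1, CYP705A5 and NATA1 are lost without unfixed replicate 2, while both GA1 stretches and BGLU27 remained.

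A microRNA gene overlapped 3 members (2.38%), 13 comparison stretches (1.26%) and 19 eligible stretches (1.21%), counts too small for a comparison. The stretch nearest to AT4G13490 (chromosome 4, 7843051 to 7849500) held MIR5026, MIR850 and MIR863 and had 7.42 on Col (4170 and 562 reads) and 0.531 on Ler (78 and 147 reads, 0.398 to 0.703). MIR833a and MIR833b lay in the stretch over AT1G78476, with 8.56 and 0.538. TAS3, the source of small RNAs that act on auxin response factor transcripts, had 5.52 and 0.667. The member that touched MIR397b, at 5.11 and 0.527, covered 9.17% of that gene. The stretches with the MIR833 genes and with MIR5026 are lost without unfixed replicate 2, and those at TAS3 and MIR397b remained.

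By chromosome, there were 27, 25, 24, 26 and 24 on chromosomes 1 to 5, beside 461, 234, 317, 217 and 341 eligible stretches. Another member lay within 10 kb of 16 members (12.7%) and within 50 kb of 41 (32.5%). Another eligible stretch lay within these distances of 62.3% and 86.4% of eligible stretches, but the smaller set is sparser by its size alone. A protein-coding gene was covered by 50% or more in 80 members (63.5%), in 764 of the comparison stretches (74.2%) and in 1121 of all eligible stretches (71.4%), and the 80 members held 107 such genes. No protein-coding gene overlapped 20 members, of which 11 held a noncoding gene and 9 held no gene. A pseudogene lay in 13 members (10.3%), in 5.05% of comparison stretches and in 5.35% of eligible stretches. These shares come from 1 pooled set of stretches and were not tested.

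Just outside the members, in bins that the rule did not use, the median paternal ratio was lower than beside other stretches, while the maternal one was not. In 1500 bp on each side, leaving out all shared stretches, 92 members had at least 15 H3 reads from each parent. The median Ler ratio of these flanks was 0.859 (95% order-statistic interval 0.720 to 1.00) in members, 1.05 (1.00 to 1.08) beside 846 comparison stretches and 1.02 (0.990 to 1.06) beside all 1315 eligible stretches. The median Col ratio was 3.7 (3.44 to 4.14) in members, 3.59 (3.47 to 3.66) beside comparison stretches and 3.26 (3.18 to 3.35) beside all eligible stretches. The flank was at 0.7 or below on Ler in 35 members (38.0%), in 174 comparison stretches (20.6%) and in 285 eligible stretches (21.7%). Stretches and their flanks come from the same pooled libraries, so the intervals cover the spread over stretches and not that over samples.

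The 134 stretches that met the rule without unfixed replicate 2 are another set, of which 103 had a measured flank. Their median flank was 0.753 on Ler and 3.19 on Col, against 0.937 and 2.66 beside 1860 eligible stretches cut in the same way. The Ler flank was 0.7 or lower in 44 of the 103 (42.7%) and in 27.7% of eligible stretches. The Ler share of H3 reads in the flanks was 20.4% beside members and 19.1% beside comparison stretches, closer than the 26.1% and 20.0% inside the stretches.

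In summed counts the Ler ratio within members, which the rule held low, was 0.523 in the middle and 0.558 towards the ends. In the first 300 bp outside, which the rule did not use, it was 0.860 (0.782 to 0.946), and no boundary is read from this step. The Col ratio at the same places was 5.70, 5.32 and 4.32. Beside the comparison stretches the first 300 bp had 4.08 on Col and 1.21 (1.17 to 1.24) on Ler. Between 2700 and 3000 bp away the Ler ratio was 0.890 (0.804 to 0.986) beside members and 1.03 (0.991 to 1.06) beside comparison stretches, and the Col ratios were 3.13 and 2.91.

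**Figure D4:**
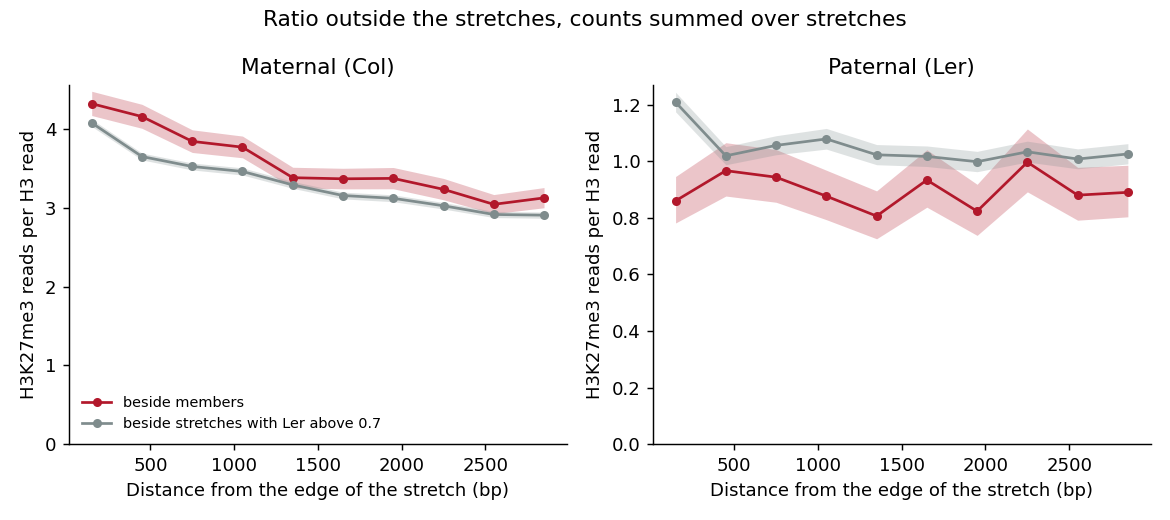
Lines give H3K27me3 reads per H3 read in 300 bp windows by distance from the edge, on Col (left panel) and Ler (right panel), summed over both sides of the members (red) and of the comparison stretches (grey), with 95% exact counting intervals as bands. On Ler the first window is at 0.860 beside members and 1.21 beside comparison stretches; on Col it is at 4.32 and 4.08.

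Single flanks differed widely, and those named here include the 5 lowest, chosen after their values were seen. Both GA1 stretches had low Ler flanks, 0.297 (22 and 74 reads) and 0.288 (15 and 52 reads), and they share part of these bins. The flank of the stretch nearest to PHT1;4 had 0.319 (23 and 72 reads), that of the stretch over AT1G28700 had 0.321 (9 and 28 reads), and that nearest to PG1 had 0.324 (24 and 74 reads). The member over AT1G28700 is lost without unfixed replicate 2, where its longer stretch had a Ler ratio of 0.706. Among the list genes, the flank had a Ler ratio of 0.413 at FUS3, 0.439 at KNAT2, 0.450 at HDG3 and 0.583 at VIM5. At AGL86 it was 1.73 (38 and 22 reads), and PKR2 had too few flank reads for a value. Of the 25 members with the largest contrast, 19 had a measured flank and 9 of these were at 0.7 or lower on Ler.

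The domains over the members had a like width in leaf and in 3 of the 4 endosperm libraries. The median width of the widest domain over each member was 6525 and 9600 bp in the fixed endosperm libraries, 6975 and 2400 bp in the unfixed ones, and 7200 bp in leaf. Over the comparison stretches it was 6750, 8100, 6750, 2550 and 7800 bp in the same order of libraries. The fixed libraries averaged 8062.5 ± 2174 bp and the unfixed ones 4687.5 ± 3235 bp (SD, n = 2 each), a difference of 3375 bp with p = 0.667 by a two-sided exact permutation test, whose smallest possible p is 0.333. With the libraries paired by replicate number the difference was the same and p was 1. Fixed replicate 1 was narrower than unfixed replicate 1, so the groups overlapped, and a design of this size cannot show a difference. It was 1087.5 bp without unfixed replicate 2, 1837.5 bp without fixed replicate 2 and 5662.5 bp without unfixed replicate 1.

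By enrichment the members ranked much like other stretches in leaf. The median percentile of the authors' enrichment within the leaf list was 81.8 over members, 84.9 over comparison stretches and 81.6 over all eligible stretches. In endosperm it was 78.7 and 81.4 in the fixed and 76.1 and 68.4 in the unfixed libraries over members, and 80.7, 82.9, 82.9 and 72.2 over comparison stretches. Ranks within lists of different lengths are not a measure of change between tissues.

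**Figure D5:**
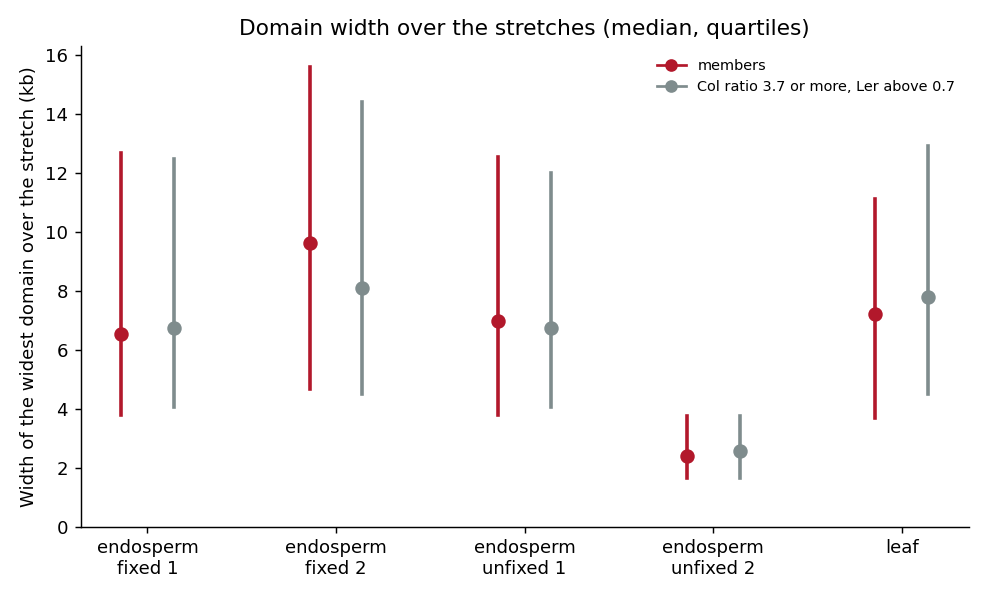
Points are medians and lines run between the quartiles of the width in kb of the widest domain over each stretch, for members (red, left in each pair) and comparison stretches (grey), in each of the 4 endosperm libraries and in leaf. Unfixed replicate 2 has the narrowest domains over both sets, with medians of 2400 bp over members and 2550 bp over comparison stretches.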

How the data were processed

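CUT&RUN libraries for H3K27me3 and H3 from endosperm, and for H3K27me3 from leaf, were used. Libraries made with IgG, and trial runs on nuclei of embryo and seed coat, were left out. Trim Galore, Bowtie2, Picard, deepTools 2.0, SICER and the build TAIR10 were used by the authors per the submitters' processing notes, which give no roles. The authors deposited 5 lists of H3K27me3 domains (4 endosperm, 1 leaf), each with a p-value (possibly adjusted), not used here, and an enrichment score of unstated scale, which was ranked within a list only. The authors also deposited whole-number read counts in 150 bp bins as pooled Col and Ler columns for each antibody. The way reads were assigned to a parent is unstated. Nuclear totals were 11018316 (Col) and 1170723 (Ler) for H3K27me3, and 6201154 (Col) and 1437423 (Ler) for H3. The files do not show the depth of single libraries.

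Bins were summed by midpoint within each stretch, and a ratio is H3K27me3 over H3 reads of the same parent. Intervals are 95% exact binomial (Clopper-Pearson) intervals; reads need not be independent molecules. For log2 contrasts 0.5 was added to each count. Genes came from the TAIR10.1 annotation, taken to share nuclear coordinates with TAIR10. As a check, 34 of 41 floral, meristem and boundary regulators were at least 50% covered in leaf in place, against 10 and 6 when moved by 50000 bp up or down. A gene is in a stretch when any of it overlaps, unless 50% is stated. A list gene with several eligible stretches is given by the one with the lowest Ler ratio. Named members were the 25 with the largest contrast among those with at least 30 Ler H3 reads, plus every member over a list gene; a stretch is named by the protein-coding gene that covers most of it, or the nearest gene. The 7 gene lists (119 distinct genes) were compiled from background knowledge and not checked against a publication. Members and lists were chosen with earlier results of these data known. Widths in fixed and unfixed libraries were compared by a two-sided exact permutation test; replicate numbers are shared by label only. Alternatives covered the length, depth and ratio limits, the lists required, flank size and gene cover. Scripts (Python 3.11.15, numpy 2.4.6, pandas 2.3.3, scipy 1.17.1, matplotlib 3.10.9) were tested on simulated data. No sequence is shown, since no genome was used here.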

Additional observations from a re-analysis of the deposited data

How the results depend on the processing

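The count of 126 members, of 1570 eligible stretches, depended most on the ratio limits. Among the same 1570 it was 49 with a Ler limit of 0.5, 344 with a Ler limit of 1 and 77 with a Col limit of 5. It was 64 of 690 eligible stretches with a minimum length of 2000 bp, and 72 of 944 with at least 30 H3 reads per parent. For length and depth the eligible set thus shrank as well. It was 82 with Ler reads over scaled Col H3 reads, a setting chosen after seeing the data, as were the widened intervals and the flanks without unfixed replicate 2. Leaving out 1 endosperm list at a time gave 129 to 134 members, among 1657 to 2290 eligible stretches. The like counts hide a change of set, since only 73 of the 134 without unfixed replicate 2 overlapped the 126. Without any other endosperm list, 124 to 126 did. With the leaf list not required there were 181 among 1975 eligible stretches, and 117 of the 181 overlapped the 126. The median Ler flank was 0.704 with 750 bp on each side, and the Col flank 3.19 without unfixed replicate 2, where the Ler flank was 0.753. Widened intervals lay below the eligible median in 44 members, against 111. In the fixed against unfixed width, leaving out 1 library gave differences of 1087.5 to 5662.5 bp, and the replicate block left 3375 bp with p = 1 by exact permutation; no setting reached the threshold, which a design of 2 against 2 cannot reach. The causes of these shifts were not tested. The difference over the 25 named members, also a later choice, was 5325 bp. A protein-coding gene was held by 56 members at 80% cover and 106 at any overlap, against 80. The share of measured flanks at 0.7 or lower on Ler was 30.4% to 49.2%, against 38.0%. With flanks of 750 or 3000 bp, or at least 30 H3 reads per parent in the flank, flank values were computed for members only. Nothing is read from the shares or medians at those settings about members beside other stretches. Motif searches and distances to transposable elements were not run, as no genome or element annotation was used here. Few paternal reads (a median of 17 in H3K27me3 per member) and the lack of replicate columns limit every parental value.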
